A study of Mus musculus with 4 samples.

Results

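The retinoblastoma family and the E2F factors were examined as 10 genes, namely the pocket protein genes *Rb1*, *Rbl1* and *Rbl2* and the transcription factor genes *E2f1*, *E2f2*, *E2f3*, *E2f4*, *E2f5*, *E2f7* and *E2f8*. The members were taken by gene symbol from the RefSeq transcript IDs of the count files, which cover 23732 named genes, and for each gene the ID with the highest summed count was used and the others were given beside it. RNA sequencing was done on immortalized murine dermal fibroblasts (imMDFs) of the genotypes Lap2alpha -/- (*Tmpo* KO, 2 libraries) and Lap2alpha +/+ (*Tmpo* WT, 2 libraries), where replicate 1 of each genotype came from passage 34 and replicate 2 from passage 42. No treatment was given, and both genotypes grew in the same serum-containing medium and were passaged before they were fully confluent. The knockout is a deletion of exon 4 of *Tmpo*, which removes LAP2alpha and leaves the other LAP2 proteins. The sources name 1 line per genotype, so the deletion and any other difference between the lines cannot be told apart, and beyond the passage numbers no separate origin of the replicates is stated. The p-values therefore cover the spread among these libraries alone. The fit between genotypes held no term for passage, so this spread includes the difference between the passages, and the rest of it may be technical.

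The pocket proteins are the brake of the cell cycle. In resting cells they bind E2F factors at promoters and keep genes of DNA replication and mitosis silent, and they let go when cyclin-dependent kinases phosphorylate them. E2F1, E2F2 and E2F3 are the activators that pRb, the product of *Rb1*, holds back, E2F4 and E2F5 act mainly as repressors together with p107 (*Rbl1*) and p130 (*Rbl2*), and E2F7 and E2F8 are atypical repressors that bind DNA without a pocket protein or a DP partner. LAP2alpha and nucleoplasmic lamin A/C are known to bind pRb, which makes this family a natural question in cells without LAP2alpha.

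Several E2F genes are themselves E2F targets, so their promoters are shown where the E2F consensus was found upstream of the transcription start. The consensus was searched as TTTCCCGC, TTTCGCGC, TTTGCCGC and TTTGGCGC on both strands, in windows from 250 bases before to 50 bases after each start taken from RefSeq (GRCm38.p6). Of the 10 genes, 7 were matched to 9 such promoters, and *Rb1*, *E2f4* and *E2f5* were not in the table. A match was found in 4 of the 9 promoters, in *Rbl1*, *E2f2*, *E2f3* and *E2f7*, against 2.26% of all 32851 promoters. The match of *E2f2* began 39 bases after the start and is not printed. Those of *Rbl1* (starting 18 bases before the start), *E2f3* (11 bases before) and *E2f7* (198 bases before) are given in capitals in 100 bases of the gene's own strand, 5′ to 3′. The *Rbl1* window is chr2:157204535-157204634 (minus strand), that of *E2f3* is chr13:29986064-29986163 (minus strand) and that of *E2f7* is chr10:110745195-110745294 (plus strand).
Rbl1: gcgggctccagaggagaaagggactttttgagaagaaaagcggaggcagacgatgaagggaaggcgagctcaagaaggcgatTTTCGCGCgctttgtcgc
E2f3: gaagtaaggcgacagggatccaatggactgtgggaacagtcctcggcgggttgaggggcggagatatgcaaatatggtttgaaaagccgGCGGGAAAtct
E2f7: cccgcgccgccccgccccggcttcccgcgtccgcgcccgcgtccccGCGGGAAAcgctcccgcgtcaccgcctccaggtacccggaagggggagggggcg
The motif lies on the printed strand in *Rbl1* and on the other strand in *E2f3* and *E2f7*. A second element, TTTGAA (the CHR, which MuvB complexes bind in genes of mitosis), was found on either strand in 4 of the 9 promoters, in *Rbl2*, *E2f3*, *E2f8* and the second start of *E2f2*, against 17.9% of all promoters. None of the E2F strings contains TTTGAA. A match is a description of the letters and not a measured binding site.

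The libraries held between 12168433 and 19603812 reads given to a transcript ID. The knockout was visible in the counts of *Tmpo*: its transcript NM_011605, which contains the deleted exon, had 6 and 6 counts in *Tmpo* KO and 903 and 1324 in *Tmpo* WT at passages 34 and 42, and a log2 fold change of −7.86 with a standard error of 0.337 (edgeR quasi-likelihood, adjusted p = 1.26e-06). Levels are given as CPM, counts scaled to the library's total of reads given to IDs. The CPM of 12 fibroblast markers summed to 12530 and 16390 in KO and to 14040 and 13580 in WT at passages 34 and 42, with *Pdgfrb* at 0. Of 11 tested, *Thy1* passed as higher in KO (1328 and 757 CPM, against 308 and 275 CPM in WT, edgeR adjusted p = 0.00469) and *Postn* as lower (0.633 and 1.07 CPM, against 2.38 and 6.06 CPM in WT, adjusted p = 0.0453). The *Postn* call rests on 10 and 21 counts in KO and 29 and 95 in WT. Another ID of *Postn*, NM_001198765, did not pass (log2 fold change −1.73, edgeR adjusted p = 0.209). Markers of keratinocytes (8 genes) reached 19.6 and 12.3 CPM in KO against 17.0 and 16.7 CPM in WT, those of endothelium (6 genes) 11.3 and 8.01 CPM in KO against 7.64 and 8.36 in WT, of leukocytes (7 genes) 15.2 and 12.4 in KO against 9.37 and 8.68 in WT, and of melanocytes (6 genes) 50.7 and 36.0 in KO against 34.1 and 42.6 in WT, with *Trp63*, *Tek*, *Cd68* and *Itgam* at 0 in all libraries. *Trp63*, *Tek*, *Cd68*, *Itgam* and *Pdgfrb* each have several IDs. Reads shared by the IDs of a gene were set aside as ambiguous, so these zeros are no measure of level. Of the melanocyte sums, *Tyr* alone gave 41.4 and 29.5 CPM in KO and 25.8 and 35.1 CPM in WT. The part of other cell types in the results was not tested.

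Of the 10 members, 9 had at least 1 CPM in both replicates of a genotype and were tested, and none passed edgeR's quasi-likelihood test at an adjusted p under 0.05, while 2.75% of all 13855 tested IDs did, 1.51% higher and 1.24% lower in KO. In bulk RNA, fewer cells of a type and less RNA per cell cannot be told apart. An unadjusted p under 0.05 was seen in 1 of the 9, *E2f7*, against 12.8% of all tested IDs. Its log2 fold change was −0.51, the largest in size of the 9, and the highest value was 0.33 in *E2f5*. The median over the 9 genes was −0.24 on the log2 scale, against 0.02 over all tested IDs, and 2 of the 9 had a positive value. Over the tested IDs of each chromosome that holds a member, the median ran from −0.21 (chromosome 13) to 0.13 (chromosome 4). The CPM of the genotypes did not overlap in 5 of the 9 genes, 4 lower and 1 higher in KO, which compares with 41.7% of all tested IDs. The pooled 95% intervals of the fold changes, which rest on the spread edgeR shares among IDs, reached as far as −1.02 (*E2f7*) and 0.87 (*E2f1*). Differences inside these intervals could not be resolved with these libraries. For 1 gene, exact permutation of 2 KO and 2 WT libraries allows no two-sided p under 0.333.

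**Figure D1:**
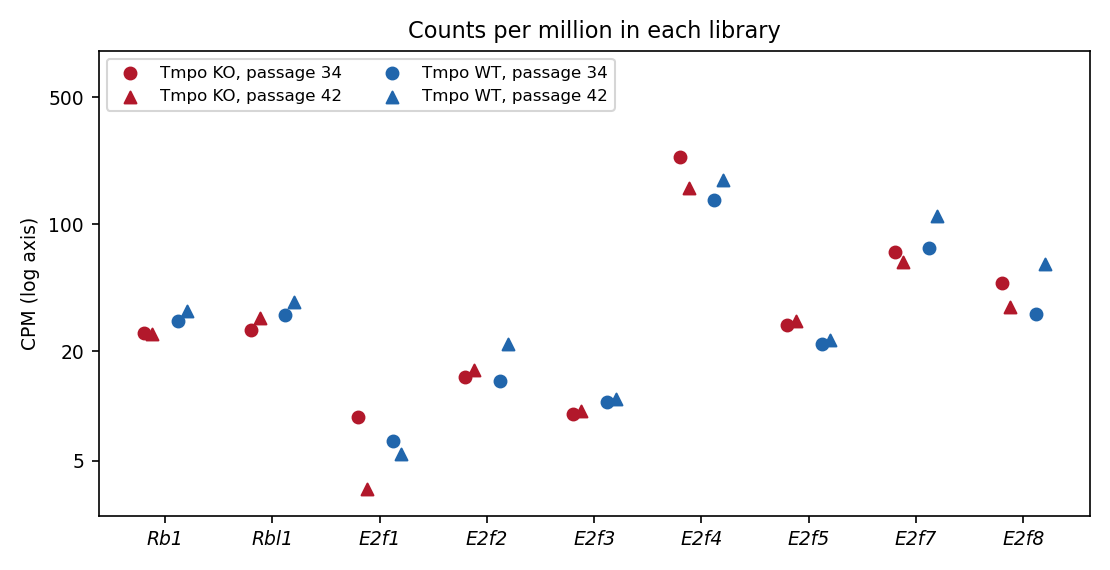
CPM (log axis) of the 9 counted genes, 1 point per library, with *Tmpo* KO in red left of *Tmpo* WT in blue, circles for passage 34 and triangles for passage 42. *E2f4* lies highest, between 135 and 233 CPM, and *E2f1* lowest, between 3.52 and 8.74 CPM, while *E2f7* and *E2f8* at passage 42 stand high in WT. *Rbl1*, *E2f1* and *E2f3* have several IDs, and reads shared by these IDs are not in the values.

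**Figure D2:**
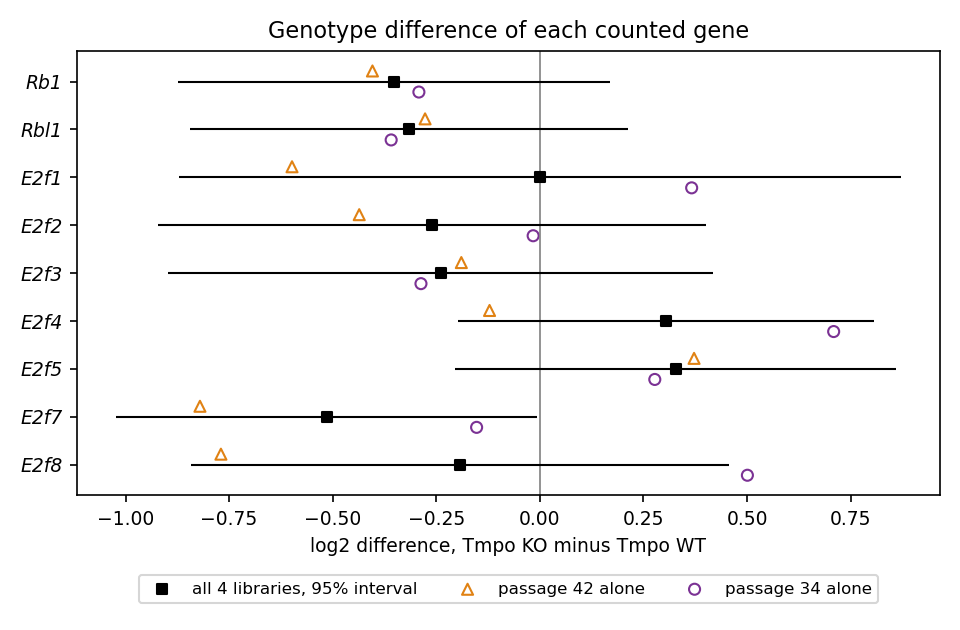
Log2 difference between *Tmpo* KO and *Tmpo* WT (x axis) of each gene (y axis), with black squares and lines for the fold change and its 95% interval from all 4 libraries, orange triangles for passage 42 alone and purple circles for passage 34 alone. The interval includes 0 in all genes but *E2f7*, which ends at −0.01, and the passages lie on opposite sides of 0 in *E2f1*, *E2f4* and *E2f8*.

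Among the pocket proteins, *Rb1* was counted at similar levels in the 4 libraries. *Rb1* encodes pRb and spans bases 73583480 to 73725629 of chromosome 14 (minus strand, NCBIM37, the mm9 build). Its only ID, NM_009029, had 397 and 488 counts in KO and 356 and 526 in WT at passages 34 and 42. This was 25.2 and 24.9 CPM in KO, against 29.3 and 33.6 CPM in WT. Both KO libraries lay below both WT libraries, and the KO libraries were closer to each other than the WT libraries were. On the log2 scale KO over WT was −0.35 (standard error 0.237, 95% interval −0.87 to 0.17), with an adjusted p of 0.636 in edgeR's quasi-likelihood test. Exons of *Rb1* overlap those of *Rcbtb2* and *Lpar6* on the other strand, and whether the counting used strand is not given in the sources. If it did not, reads in the overlap may have been set aside as ambiguous, so the counts of *Rb1* can understate its level.

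*Rbl1*, which encodes p107, a pocket protein that is made mainly in cycling cells, lies on chromosome 2 from 156971629 to 157030270. NM_011249 had 413 and 596 counts in KO and 388 and 588 in WT, that is 26.2 and 30.4 CPM in KO against 31.9 and 37.5 CPM in WT. Again both KO values were under both WT values, with the KO library of passage 42 close to the WT library of passage 34. The ratio of KO to WT was −0.32 in log2 (standard error 0.240, adjusted p = 0.698 from the same edgeR test, interval −0.84 to 0.21). It was −0.51 without KO replicate 2 and −0.19 without KO replicate 1. The second ID of the gene, NM_001139516, had 16 and 42 counts in KO and 35 and 37 in WT and did not pass either (log2 fold change −0.72, standard error 0.463, adjusted p = 0.611 from edgeR). Summed over both IDs the log2 fold change was −0.34.

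*Rbl2*, which encodes p130, the pocket protein that predominates in resting cells, could not be measured. Its 3 IDs, NM_011250, NM_001282000 and NM_001282001, had 0 counts in all 4 libraries. The counting treated every ID as separate and set aside reads that fit several IDs as ambiguous, so that a gene whose IDs share their exons can be left with no counts at any level of expression. Of protein-coding genes with 3 or more IDs, 21.4% had no count at all, against 15.6% of those with 2 IDs and 3.07% of those with 1. The zero of *Rbl2* is therefore no measure of its level.

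The activator E2Fs were counted low. *E2f1* and *E2f3* have several IDs, and reads shared by the IDs of a gene were not counted, so their CPM can understate their level. *E2f1*, on chromosome 2 from 154385143 to 154395628, encodes the E2F that drives entry into S phase and is induced as cells enter it. NM_007891 had 138 and 69 counts in KO and 78 and 86 in WT, that is 8.74 and 3.52 CPM in KO against 6.41 and 5.49 CPM in WT. The KO libraries held both the highest and the lowest value, so that the genotypes overlapped fully. Accordingly, the log2 fold change was −5.83e-05 (standard error 0.396, interval −0.87 to 0.87, edgeR adjusted p = 1.00). Without KO replicate 1 it was −0.76 and without KO replicate 2 it was 0.46. The second ID, NM_001291105, had 24 and 33 counts in KO and 20 and 28 in WT (log2 fold change −0.12, adjusted p = 0.955 from edgeR).

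*E2f2*, a second activator, lies on chromosome 4 from 135728309 to 135751972. Its only ID, NM_177733, had 14.4 and 15.9 CPM in KO, against 13.8 and 21.9 CPM in WT at passages 34 and 42. The KO values lay between the WT values. The log2 fold change was −0.26 (standard error 0.301, adjusted p = 0.834 from edgeR), and without WT replicate 2, the library with the highest value, it was 0.09. *E2f3*, the third activator, on chromosome 13 from 29998444 to 30077537, had 9.06 and 9.39 CPM in KO against 10.5 and 10.9 CPM in WT from NM_010093. The replicates of each genotype were close, and the genotypes did not overlap. Between genotypes the log2 fold change was −0.24 (standard error 0.299, adjusted p = 0.853 from edgeR), beside a median of −0.21 over the 453 tested IDs of chromosome 13. Its other ID, NM_001289920, had 3.48 and 2.40 CPM in KO and 3.04 and 3.89 CPM in WT, and the genotypes overlapped.

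*E2f4*, a repressor E2F, had the highest CPM of the tested members, of which those with several IDs can be understated. It lies on chromosome 8 from 107821563 to 107829269, and its product resides largely in complexes with p107 and p130. NM_148952 had 3683 and 3099 counts in KO and 1648 and 2743 in WT, that is 233 and 158 CPM in KO against 135 and 175 CPM in WT. With library sizes scaled by TMM, as in all log2 differences within a passage given here, KO minus WT was −0.12 at passage 42 and 0.71 at passage 34. The pooled log2 fold change was 0.30 (standard error 0.228, adjusted p = 0.693 from edgeR, interval −0.20 to 0.81), beside a median of −0.17 over the 645 tested IDs of chromosome 8. It was 0.03 without KO replicate 1, the highest library, 0.16 without WT replicate 1, the lowest, 0.49 without KO replicate 2 and 0.48 without WT replicate 2.

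*E2f5*, the other pocket-bound repressor, on chromosome 3 from 14578671 to 14606308, was the only member with both KO libraries above both WT libraries. NM_007892 had 27.9 and 29.3 CPM in KO, against 21.9 and 23.0 CPM in WT. The replicates of each genotype were close to each other. This gave a log2 fold change of 0.33 with a standard error of 0.242 and an interval from −0.20 to 0.86 (edgeR adjusted p = 0.683). It was positive in all 13 alternative fits, from 0.21 to 0.38, and in none of them did it pass the threshold.

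The atypical repressor *E2f7* had the smallest p of the family. It lies on chromosome 10 from 110182495 to 110224440, and with *E2f8* it represses E2F targets late in S phase. NM_178609 had 1105 and 1217 counts in KO and 899 and 1750 in WT, that is 70.0 and 62.1 CPM in KO against 73.9 and 112 CPM in WT. The KO libraries lay below both WT libraries, narrowly below the WT library of passage 34 and far below that of passage 42. Its log2 fold change of −0.51 had a standard error of 0.231 and an adjusted p of 0.383 (edgeR quasi-likelihood), and over the alternatives it was lowest without WT replicate 1 (−0.75) and nearest to 0 without WT replicate 2 (−0.21). *Mki67*, a marker of cycling cells named after its values were seen, had 1045 and 1481 CPM in KO and 1255 and 1582 CPM in WT (log2 fold change −0.19, adjusted p = 0.868 from edgeR), and its part in these values was not tested.

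*E2f8*, on chromosome 7 from 56121799 to 56136966, had 755 and 686 counts of NM_001013368 in KO and 390 and 953 in WT. This was 47.8 and 35.0 CPM in KO, against 32.1 and 60.8 CPM in WT. The WT libraries held the lowest and the highest value, with both KO libraries between them. In log2, KO differed from WT by −0.77 at passage 42 and by 0.50 at passage 34. The pooled log2 fold change was −0.19 (standard error 0.295, adjusted p = 0.881 from edgeR), and without WT replicate 2 it was 0.32. Exons of *E2f8* overlap *Gm2788*, a noncoding gene of the other strand.

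Levels of different genes were compared per kilobase, for the 6 members with a single ID and with the length of their longest coding transcript in GENCODE vM1, which need not be the RefSeq transcript. *E2f4* stood highest, with 98.2 ± 26.7 CPM per kb in KO and 77.9 ± 14.1 in WT (SD, n = 2 each), and its lowest library (68.0) was above every library of the other 5. *E2f5* had 16.4 ± 0.562 CPM per kb in KO and 12.8 ± 0.473 in WT, *E2f7* 12.1 ± 1.02 and 16.9 ± 4.87, and *E2f8* 11.2 ± 2.46 and 12.6 ± 5.51, in the same order and with n = 2 each. The ranges over the 4 libraries of these 3 overlapped, so they were not separable in level. *Rb1* followed with 5.37 ± 0.0395 CPM per kb in KO and 6.74 ± 0.651 in WT, and *E2f2* was lowest with 3.19 ± 0.221 and 3.77 ± 1.20 (SD, n = 2 each). All libraries of *Rb1* lay below those of *E2f8* and above those of *E2f2*. Reads of *Rb1* where its exons overlap genes of the other strand may be missing from its values. *Rbl1*, *E2f1* and *E2f3* have several IDs, of which only the reads that tell them apart were counted, and were left out of this order.

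The passages were compared as well. With genotype as a block, none of the 9 genes passed edgeR's quasi-likelihood test between passage 42 and passage 34, while 2.31% of all tested IDs did, and 1 had an unadjusted p under 0.05 (11.6% of all tested IDs). This was *E2f1*, whose log2 ratio of passage 42 to passage 34 was −0.76 (standard error 0.362, edgeR adjusted p = 0.372). With DESeq2 and without the genotype block, 0 of the 9 had an unadjusted p under 0.05, and over all IDs 40 and 0 were called in place of 320. Its difference between passages 42 and 34 was −1.22 in KO and −0.25 in WT. *E2f8* differed by −0.38 in KO and by 0.89 in WT, *E2f7* by −0.11 in KO and 0.56 in WT, and *E2f4* by −0.50 in KO and 0.34 in WT. In these 3 genes the value was negative in KO and positive in WT. *Rb1* differed by 0.05 in KO and 0.16 in WT, and *Rbl1* by 0.28 in KO and 0.20 in WT. *E2f2* (0.21 in KO and 0.63 in WT), *E2f3* (0.12 and 0.02) and *E2f5* (0.14 and 0.04) had positive values in both genotypes. With 1 library per genotype and passage, the difference between these differences has no replicate and was not tested.

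**Figure D3:**
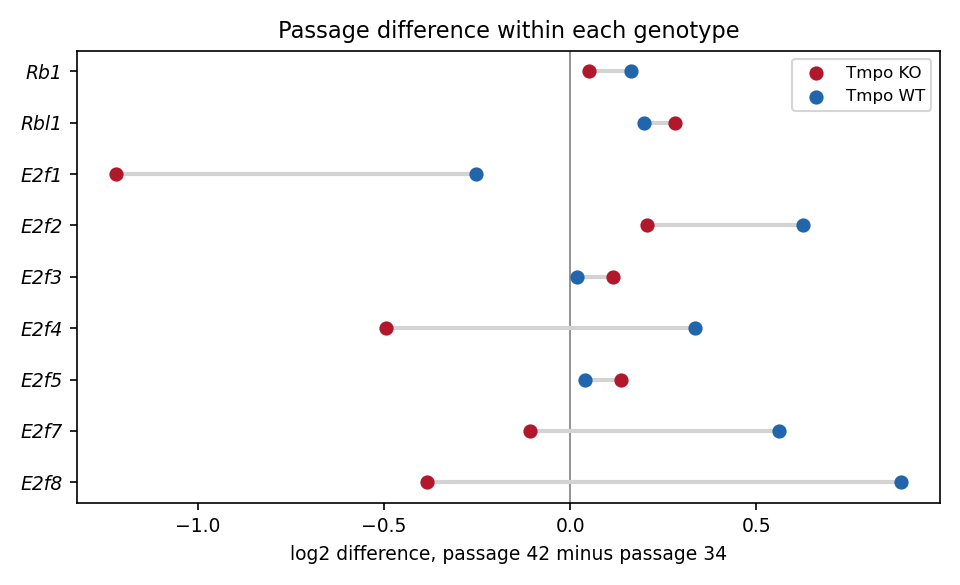
Log2 difference between passage 42 and passage 34 (x axis) within *Tmpo* KO (red) and within *Tmpo* WT (blue) for each counted gene (y axis), with 1 library per genotype and passage and so no error. KO and WT lie close together in *Rb1*, *Rbl1*, *E2f3* and *E2f5* and on opposite sides of 0 in *E2f4*, *E2f7* and *E2f8*, where *E2f8* is at −0.38 in KO and 0.89 in WT.

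The genotype difference was of opposite sign at the 2 passages in 3 of the 9 genes (*E2f1*, *E2f4* and *E2f8*), and in 40.4% of all tested IDs. Relative to passage 34, the genotype difference at passage 42 changed by −1.27 on the log2 scale for *E2f8*, −0.96 for *E2f1*, −0.83 for *E2f4*, −0.67 for *E2f7* and −0.42 for *E2f2*. The remaining 4 genes changed by between −0.11 and 0.10. The median of this change was −0.42 over the 9 genes and 0.03 over all tested IDs, and it exceeded 2-fold in 1 of the 9 (11.1%) and in 12.1% of all tested IDs.

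The genes whose pattern was most like *E2f7*, the member with the smallest p, were *Cd2ap* (Pearson r = 0.99989 of log2 CPM), *Faxc* (0.99970) and *Slc35b4* (0.99948), out of 10158 IDs compared. These coefficients describe 4 libraries and share their depth. Over so few points 32 IDs had an r above 0.99.

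The partners of the E2Fs were mostly out of reach of these counts. *Tfdp1*, which encodes DP1, the usual dimer partner of E2F1 to E2F6, had 337 and 320 CPM in KO, against 412 and 440 CPM in WT. Both KO libraries were below both WT libraries, and KO over WT was −0.40 in log2 (standard error 0.196, edgeR adjusted p = 0.442). *Tfdp2* (6 IDs) and *E2f6* (2 IDs, a repressor that acts without pocket proteins) had at most 6 counts in any ID and library and were not tested. The MuvB core with B-Myb and FoxM1 turns E2F repression into activation of mitotic genes. Of its 8 genes, 5 were tested and none passed edgeR's quasi-likelihood test (2.75% of all tested IDs). At an unadjusted p under 0.05 there were 0 (12.8% of all tested IDs), and the median log2 fold change was −0.12 (0.02 over all tested IDs). *Lin9* had −0.45 and *Lin52* 0.35, both MuvB subunits, the mitotic activator *Foxm1* had −0.30 and the histone-binding *Rbbp4* −0.12.

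Upstream of pRb, the cyclins and kinases that phosphorylate it were tested in 10 of 12 genes. Those left out have several IDs, whose shared reads were not counted, so their low counts are no measure of level. Of the 10 genes none passed the same edgeR test (2.75% of all tested IDs), with 0 at an unadjusted p under 0.05 (12.8% of all tested IDs). The median log2 fold change of the 10 was 0.19, and 7 of them were positive, as were 7156 of all 13855 tested IDs. *Ccne1*, cyclin E1, which activates CDK2 at the entry to S phase and is an E2F target, had 53.3 and 37.8 CPM in KO, against 30.0 and 39.7 CPM in WT (log2 fold change 0.36, edgeR adjusted p = 0.656). At passage 34 the KO library was the highest and the WT library the lowest, while the libraries of passage 42 were close. The kinase gene *Cdk6* had 0.27, and *Ccna1* (0.78) and *Cdk3* (0.85, a transcript with a noncoding ID) rest on 40 or fewer counts per library. Of the 7 CDK inhibitor genes, 4 were tested and none passed (2.75% of all tested IDs), with 1 at an unadjusted p under 0.05 (12.8% of all tested IDs) and a median of −0.36. This was *Cdkn2a*, the locus of p16INK4a and p19ARF, whose ID NM_009877 had 54.7 and 46.0 CPM in KO, against 37.4 and 26.3 CPM in WT. Both KO libraries were higher, by 0.63 in log2 (standard error 0.249, edgeR adjusted p = 0.294). The other ID of *Cdkn2a*, NM_001040654, had 122 and 173 counts in KO and 65 and 52 in WT (log2 fold change 0.92, edgeR adjusted p = 0.299). Which of the 2 products each ID encodes was not resolved here.
*Cdkn2b*, which encodes the CDK4 and CDK6 inhibitor p15, lay the other way with 70.1 and 119 CPM in KO against 136 and 133 CPM in WT (log2 fold change −0.53, adjusted p = 0.447 from edgeR). The KO library of passage 34 was far below the rest, and with the replicate number as a block the gene passed (−0.58, edgeR adjusted p = 0.0284). It also passed without KO replicate 2 (−1.04, adjusted p = 0.00606), but that fit holds only the lowest KO library and assumes that it varies as the WT libraries do. *Cdkn2c* (p18) had −0.54 and *Cdkn1b* (p27) −0.19. *Cdkn1a*, *Cdkn1c* and *Cdkn2d* had at most 12 counts per library in their main ID. *Cdkn1a* and *Cdkn1c* have several IDs, and reads shared by the IDs of a gene were not counted. Their low counts are therefore no measure of their level. Of 16 chromatin factors that pRb is known to bind, 12 were tested and none passed (2.75% of all tested IDs), with a median of −0.08. At an unadjusted p under 0.05 in edgeR there were 0 (12.8% of all tested IDs). The histone deacetylase gene *Hdac3* had 0.19, the Rb-binding *Arid4a* 0.24, the H4K20 methyltransferase gene *Kmt5b* −0.29 and the HP1 gene *Cbx5* −0.49. The value of *Cbx5* has a standard error of 0.463 and rests on 34 or fewer counts per library in its main ID.

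Downstream, 39 of 45 E2F target genes of S phase were tested, and 1 passed as lower in KO and none as higher, where 1.24% of all tested IDs were lower. The gene was *Gins2*, a subunit of the GINS complex of the replicative helicase. It had 49.4 and 39.4 CPM in KO, against 89.0 and 81.8 CPM in WT, and the genotypes were far apart at both passages. *Gins2* fell by 0.97 on the log2 scale, with a standard error of 0.212 and an adjusted p of 0.0339 in edgeR's quasi-likelihood test, beside a median of −0.17 over its chromosome 8. The call was lost without WT replicate 1 (adjusted p = 0.291) and without WT replicate 2 (adjusted p = 0.204) and held in the other 11 alternatives. *Pola1*, the catalytic subunit of DNA polymerase alpha, had 143 and 174 CPM in KO against 190 and 246 CPM in WT (log2 fold change −0.48, edgeR adjusted p = 0.389), while *Rrm2*, a ribonucleotide reductase subunit, had 0.43. An unadjusted p under 0.05 in edgeR was seen in 3 of the 39, all lower in KO (12.8% of all tested IDs). Of the 39 genes, 10 had a positive value, against 7156 of all 13855 tested IDs, and the median was −0.15, against 0.02. The E2F consensus was found in 14 of the 42 promoters of these genes in the RefSeq table (33.3%).

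Of 25 mitotic genes of the MuvB and B-Myb complexes, 19 were tested and none passed edgeR's quasi-likelihood test (2.75% of all tested IDs). The median was −0.07, and 1 had an unadjusted p under 0.05 (12.8% of all tested IDs). That gene was *Kif11*, a spindle motor, with 217 and 248 CPM in KO, against 330 and 318 CPM in WT (log2 fold change −0.50, adjusted p = 0.302). *Ccnb1*, cyclin B1, had −0.38, *Birc5* (survivin) −0.41 and *Cdca8* (borealin) 0.28. TTTGAA was found in 16 of the 22 promoters of these genes (72.7%) and the E2F consensus in 1. By passage, the median difference between KO and WT over the 9 Rb and E2F genes was −0.40 at passage 42 and −0.02 at passage 34. For the S phase targets it was −0.21 at passage 42 and −0.13 at passage 34, and for the mitotic genes −0.01 and −0.17. The cyclins and kinases had −0.01 at passage 42 and 0.35 at passage 34, the CDK inhibitors −0.15 and −0.58, MuvB with B-Myb and FoxM1 −0.19 and 0.04, and the chromatin factors 0.00 and 0.07, in the same order. In the S phase, mitotic, MuvB and chromatin lists, every gene left untested has several IDs, whose shared reads were not counted. Their low counts are therefore no measure of level. All of the lists were chosen with earlier results of these data known.

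**Figure D4:**
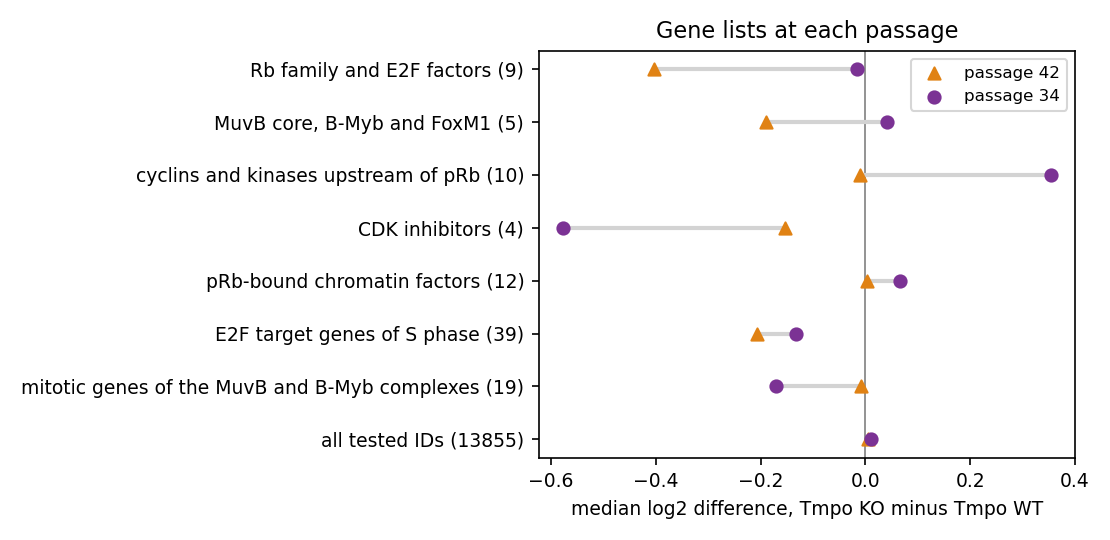
Median log2 difference between *Tmpo* KO and *Tmpo* WT (x axis) over the tested genes of each list (y axis, number in brackets), with triangles for passage 42 and circles for passage 34, 1 library per genotype at each passage and no error drawn. The Rb family and E2F factors lie at −0.40 at passage 42 and −0.02 at passage 34, while all tested IDs lie near 0 at both.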

How the data were processed

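The authors removed adapters with cutadapt, aligned reads to the mm9 genome (TopHat2 2.0.9) and used htseq-count over RefSeq transcripts, keeping reads of high mapping quality. The deposited values are raw counts for 32757 IDs. Summary lines for reads in no feature (49.9% to 56.5% of reads) and ambiguous reads (12.1% to 13.4%) were left out of library sizes and tests. Of the IDs, 32308 were named through RefSeq (GRCm38.p6, names only), and positions came from GENCODE vM1 on NCBIM37, the build of the mapping.

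The 13855 IDs that reached 1 CPM in both libraries of either genotype were fitted with edgeR 4.0.16 in R 4.3.3 (TMM, quasi-likelihood, Benjamini-Hochberg adjustment over all). Standard errors came from the fold change and the root of the F statistic, and 95% intervals from the fit's degrees of freedom. Printed CPM were scaled to library totals alone. Log2 differences within a passage or genotype used library sizes scaled by TMM and a prior count of 2, so they differ from ratios of the printed CPM. DESeq2 1.42.0 and other settings were alternatives. The procedure was tested on simulated counts. Members and lists were chosen with earlier results of these data known. Named were all members, *Tmpo*, in each list the called genes and up to 4 with the smallest p, and the 3 genes most like the member with the smallest p among IDs with a mean of at least 50 counts. One gene that this rule names is not reported here. Plots used Python 3.11.15 and matplotlib 3.10.9.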

Additional observations from a re-analysis of the deposited data

Results flagged for a closer look

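In 3 genes the difference between *Tmpo* KO and *Tmpo* WT had opposite signs at the 2 passages. It was −0.60 at passage 42 and 0.37 at passage 34 for *E2f1*, −0.12 and 0.71 for *E2f4*, and −0.77 and 0.50 for *E2f8*, in the same order and on the log2 scale. With 1 library per genotype at each passage, the difference between passages was not tested. Opposite signs were also seen in 40.4% of all tested IDs.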

How the results depend on the processing

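No member passed in any of the 13 alternatives for KO against WT, where the lowest adjusted p of a member ran from 0.132 (*E2f7*, replicate block) to 0.834 (*E2f4*, without WT replicate 2). With DESeq2 and edgeR's exact and likelihood ratio tests, 0 of the 9 had an unadjusted p under 0.05. The direction of *Rb1*, *Rbl1*, *E2f3*, *E2f4*, *E2f5* and *E2f7* was the same in all 13. *E2f1* turned positive with library totals alone (0.0376), with the exact test (7.22e-04) and in the likelihood ratio fit (7.10e-04), and with 1 library left out it ran from −0.76 to 0.46. With 1 library left out *E2f2* ran from −0.52 to 0.0913 and *E2f8* from −0.55 to 0.32. The cause of these shifts was not tested. Over all IDs, 381 were called, against 612 with the exact test, 638 with the likelihood ratio test, 740 with no filter on low counts, 1092 with the replicate block and 109 to 1291 with 1 library left out. With the replicate block 2 S phase targets and 1 CDK inhibitor were called, and with 1 library left out 0 to 1 of each. The replicate numbers are also the passages, and no source pairs the libraries. The deviations of same-numbered libraries had a correlation of 0.17. Between passages 320 IDs were called, against 40 with DESeq2 and 0 without the genotype block (669 at an unadjusted p under 0.05, edgeR), and 0 members in each. With 1 library left out, the fit between passages has no residual degrees of freedom and was not run. Fits with 1 library left out hold a lone library in 1 genotype, which is assumed to vary like the other genotype. Main IDs of the tested members had from 69 (*E2f1*) to 3683 counts (*E2f4*) per library.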
